A study of Mus musculus with 6 samples.

Results

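Rab GTPases are small membrane-bound switches that direct vesicle traffic. Here they were every gene whose symbol is Rab followed by a number and at most 1 letter, with or without a further digit, which left out the genes of Rab-binding proteins. The rule found 59 Rab genes among the 21936 genes listed. Expression was measured by RNA sequencing of mRNA from macrophages sorted from mice that had been on a high-fat diet over 4 months. The 3 libraries labelled CKO came from ALKBH5flox/flox, Lyz2-Cre, APOE-/- mice. The 3 libraries labelled WT came from ALKBH5flox/flox, APOE-/- mice, so both groups carried the floxed Alkbh5 allele and the Apoe deletion, per the labels. Alkbh5 encodes a demethylase of N6-methyladenosine in RNA, and the Cre under Lyz2 control acts in myeloid cells in general. The labels give neither the organ the cells were sorted from nor the gate; they also do not tie the libraries of a group to separate animals. The design sets macrophages labelled as lacking Alkbh5 against controls, and the question here is how Rab transcripts differ between the libraries so labelled.

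A Rab protein carries a lipid tail and cycles between a GTP-bound form on a membrane and a GDP-bound form. Exchange factors load GTP, GTPase-activating proteins end the active state, and effectors such as motors and tethers bind the active form. Macrophages are a classical setting for Rab biology, because a phagosome passes through Rab5 and Rab7 stages on its way to fuse with lysosomes. Most Rab numbers stand for a site in the cell, and genes that share a number encode closely related paralogues.

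The libraries labelled CKO had 15422154 to 17802617 reads assigned to the listed genes and those labelled WT had 16660206 to 18418903. Values are FPKM, reads scaled by gene length and by the reads assigned in the library. At these depths 3 reads on a gene of 1 kb are worth 0.163 to 0.195 FPKM, which covers counting error only. Alkbh5 went against the label, with 9.15, 8.61 and 8.50 FPKM in CKO libraries against 3.77, 3.95 and 3.88 in WT libraries. Apoe, labelled null throughout, had 95.0 ± 4.69 FPKM in CKO libraries and 1635 ± 29.3 in WT libraries (SD, n = 3 each). Counts over a whole gene do not show whether an exon was missing, and each direction given here is that of the labels on the libraries. Whether the labels stand for the genotypes they name was not tested; if they were exchanged between the groups, every direction given here would turn round. All 14 macrophage markers passed the filter on low values, 6 of them higher and 8 lower in CKO, and their summed level was 9600 to 10017 FPKM in CKO libraries and 17189 to 19103 in WT libraries. Most of that sum was Lyz2, with 6556 ± 211 FPKM in CKO libraries and 15116 ± 992 in WT libraries (SD, n = 3 each). The sum therefore does not stand for the other markers, which went both ways. Marco reached 1 FPKM in CKO libraries alone and Cd163 in WT libraries alone, so the filter fixed the direction of these markers. Adgre1 averaged 778 FPKM in CKO libraries and 222 in WT libraries, and Cd68 595 in CKO libraries and 1149 in WT libraries.

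The balance of Rab transcripts differed between the groups in both directions. Of the 59 Rab genes, 42 had at least 1 FPKM in at least 3 libraries and were tested with limma on log2(FPKM + 1), with Benjamini-Hochberg adjustment over all 9953 tested genes. At an adjusted p under 0.05, 13 were higher and 26 lower in CKO libraries, and 3 did not pass. Of the 42, 38 reached 1 FPKM in libraries of both groups. Rab33a reached it in CKO libraries alone, and Rab4a, Rab6b and Rab27b in WT libraries alone. The filter thus fixed the direction of those genes, and their calls add no support to the counts. Of all tested genes 30.5% were called higher and 50.5% lower, 81.1% in all, so a call for a single Rab gene was close to the usual outcome. For 40 of the 42 the CKO and WT values did not overlap, against 82.5% of all tested genes. A called change of at least 1 on the log2 scale was found for 4 of the 42, Rab20 and Rab33a upward and Rab7b and Rab9 downward, against 18.4% of all tested genes. The median log2 fold change was -0.27 over the tested Rab genes and -0.14 over all tested genes. After median-of-ratios scaling, which moved the median of all genes to 0.01, that of the Rab genes was -0.14, and 16 were called higher and 20 lower, against 40.8% and 38.9% of all genes (79.7% in all). After quantile normalization 15 were higher and 24 lower, against 35.9% and 43.4% of all genes (79.3% in all). In bulk libraries, fewer cells of a type and less RNA per cell cannot be told apart.

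**Figure D1:**
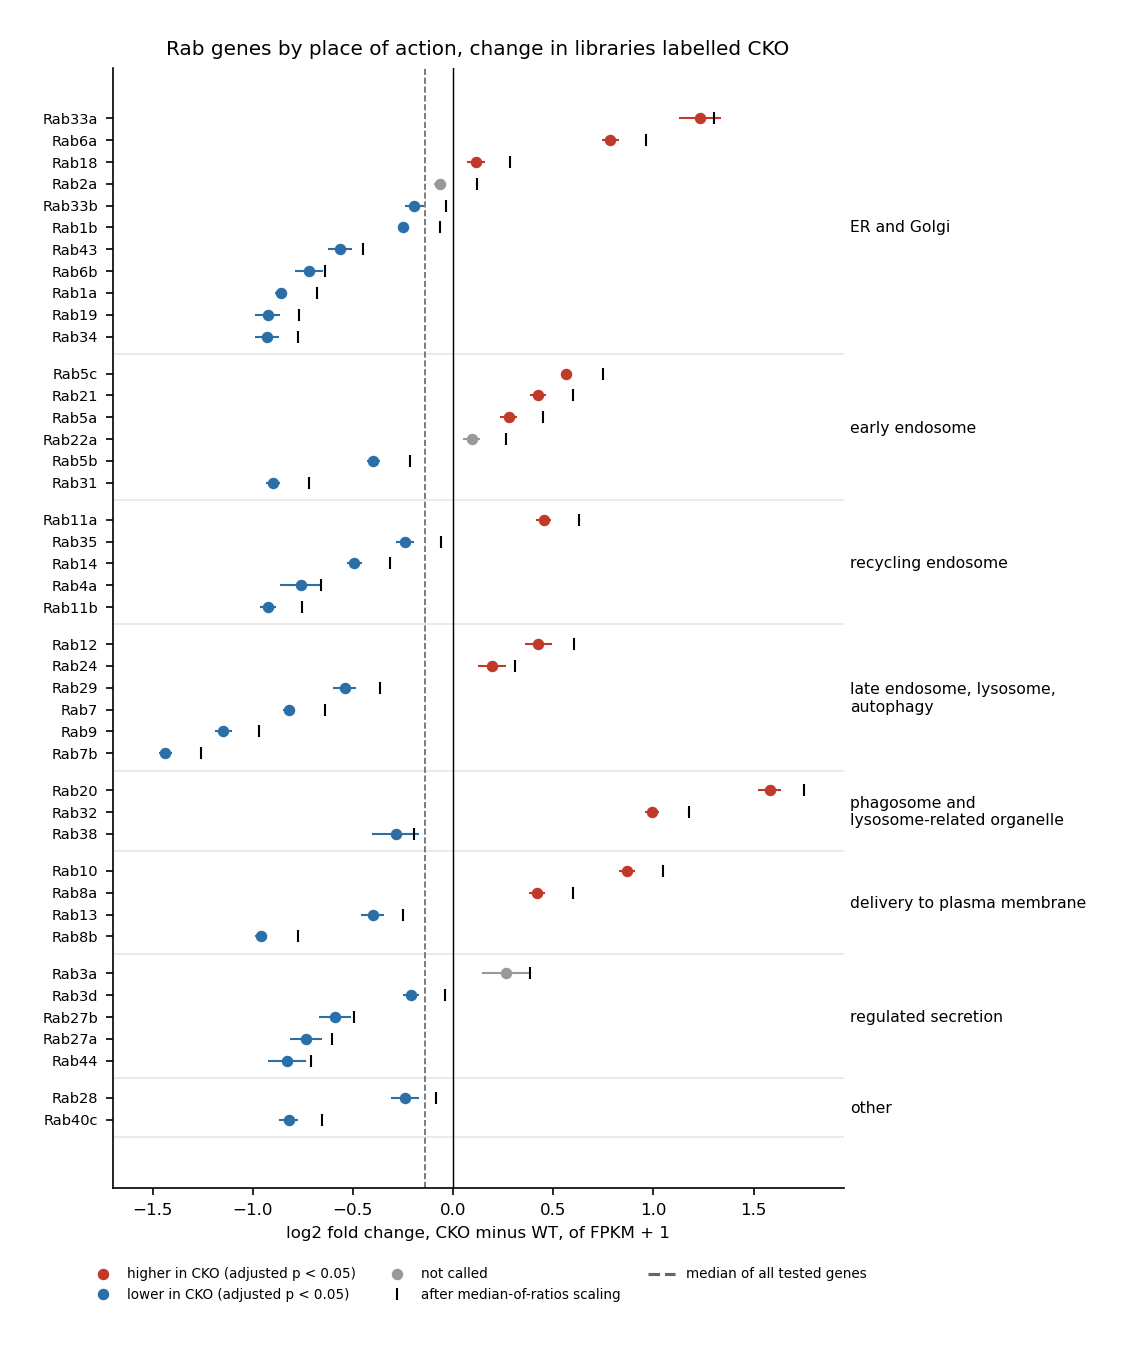
Log2 fold change of FPKM + 1, libraries labelled CKO minus libraries labelled WT, for the 42 tested Rab genes, grouped by place of action. Points with bars show the estimate and its SE from limma (n = 3 each), small vertical ticks the estimate after median-of-ratios scaling, and the dashed line the median of all tested genes, -0.14. Rab20 had the largest rise at 1.58 and Rab7b the largest fall at -1.44, and most places of action hold genes of both directions.

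The summed level of all 59 Rab genes was 1190 ± 6.16 FPKM in CKO libraries and 1353 ± 11.2 in WT libraries (SD, n = 3 each). Its make-up differed as well. Rabs of late endosomes, lysosomes and autophagy made up 17.3 ± 0.482% of the Rab FPKM in CKO libraries and 27.2 ± 0.291% in WT libraries. Rabs of phagosomes and lysosome-related organelles made up 11.6 ± 0.0942% in CKO libraries and 4.83 ± 0.151% in WT libraries. The early endosome group had 26.1 ± 0.231% in CKO libraries and 20.8 ± 0.121% in WT libraries. The first of these shares was thus lower in CKO, and the others were higher. Single abundant genes weighed heavily in these sums. Rab5c had 187 of the 311 FPKM of the early endosome group in CKO libraries and 126 of 281 in WT libraries. That group held 3 genes called higher and 2 called lower. Rab32 had 110 of the 139 FPKM of the phagosome group in CKO libraries and 54.6 of 65.3 in WT libraries. In the phagosome group 2 genes were called higher and 1 lower. The ER and Golgi group had 22.2% in CKO libraries and 24.4% in WT libraries, and delivery to the plasma membrane had 14.0% in CKO libraries and 13.0% in WT libraries. Recycling endosomes had 6.31% in CKO libraries and 6.70% in WT libraries, and regulated secretion 1.45% in CKO libraries and 1.73% in WT libraries. The shares of the groups of libraries did not overlap in any of the 8 classes, and 82.5% of all tested genes did not overlap either. The shares are parts of a whole, so a change in any class moves the others. A share does not depend on the scaling of a library.

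**Figure D2:**
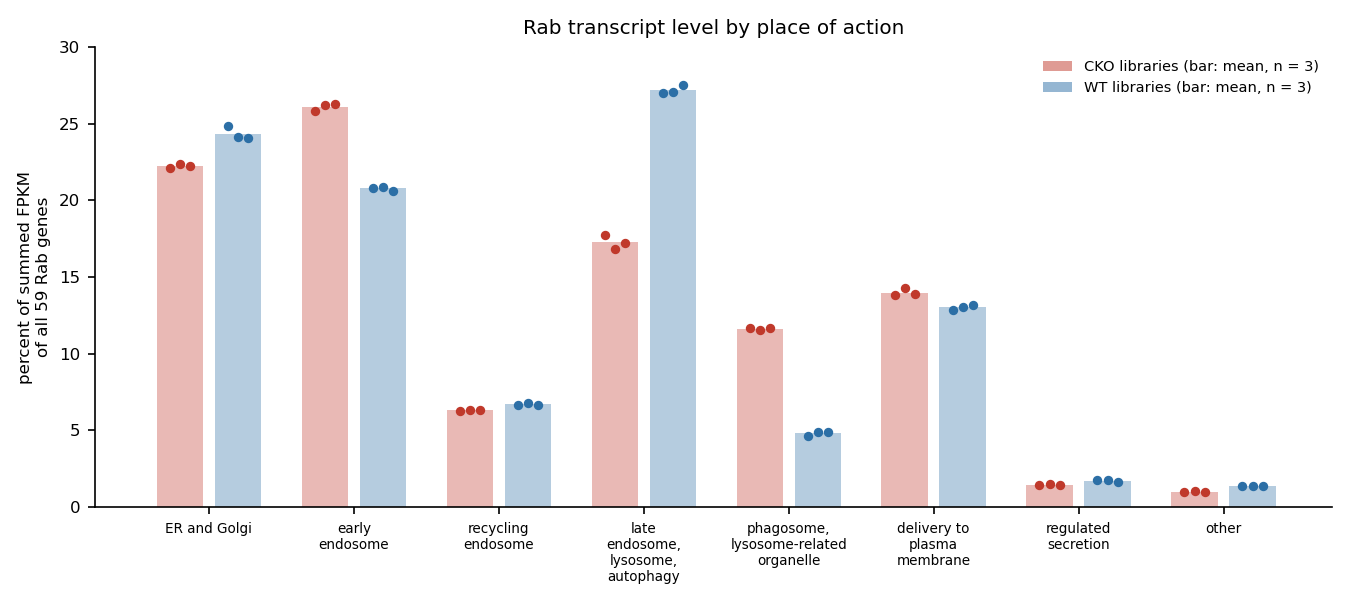
Percent of the summed FPKM of all 59 Rab genes, by place of action; bars are means, points are the 3 libraries labelled CKO (left) and the 3 labelled WT (right). Late endosome and lysosome Rabs stand at 17.3% in CKO and 27.2% in WT libraries, phagosome and lysosome-related organelle Rabs at 11.6% in CKO and 4.83% in WT libraries.

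The order of the most abundant Rab genes changed as well. Rab5c, Rab32 and Rab7 led in each CKO library, whereas Rab7, Rab5c and Rab1a led in each WT library. Rab32 stood at rank 2 in the CKO libraries and at rank 9 in the WT libraries. In the WT libraries Rab8b followed at rank 4 and Rab7b at rank 6. Within the CKO libraries the gap between Rab32 at 110, 108 and 111 FPKM and Rab7 at 109, 106 and 109 FPKM was of the size of the spread between libraries. The 5 genes with the highest mean over all libraries were Rab5c, Rab7, Rab1a, Rab1b and Rab32, and together they held 45.9% to 46.5% of the Rab FPKM in CKO libraries and 43.2% to 43.3% in WT libraries.

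The phagosome class held the gene with the largest rise. Rab20, which acts in the maturation of macrophage phagosomes, had 26.8, 27.3 and 28.2 FPKM in CKO libraries against 8.62, 7.69 and 9.27 in WT libraries. The groups were far apart, with a ratio of means of 3.22 and 1.58 on the log2 scale (SE 0.058, limma adjusted p = 3.20e-10). Rab20 lies on chromosome 8, 11453518 to 11478710 (minus strand, mm10), and 22.9% of its 50-base words also occur in the antisense transcript E230013L22Rik. Rab32, which serves lysosome-related organelles and restricts intracellular bacteria, had 110, 108 and 111 FPKM in CKO libraries against 52.0, 57.0 and 54.9 in WT libraries. That is a 2.01-fold difference with no overlap, a log2 fold change of 0.99 (SE 0.036; chromosome 10, 10545002 to 10558265, minus strand). Rab38, the closest relative of Rab32 and a melanosome factor, had 0.851, 1.03 and 0.499 FPKM in CKO libraries against 1.10, 1.48 and 0.952 in WT libraries. These values overlapped and rested on 14 to 42 reads per library. Its fall of 0.29 on the log2 scale (limma adjusted p = 0.0421) did not pass without CKO replicate 1 (0.0612), CKO replicate 3 (0.187), WT replicate 1 (0.0530) or WT replicate 2 (0.1696), nor under either other scaling, with no filter, with a pseudocount of 0.1, without the trend or with array weights. Rab39 and Rab39b, the other 2 genes of this class, stayed under the filter.

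The windows upstream of Rab20 and Rab32 are shown for the motifs they hold, since these are the abundant Rab genes that rose most. Each is a stretch of 30 bases read 5′ to 3′ from the RefSeq table of promoters (GRCm38.p6, the same assembly as mm10), with the matched motif in capitals.
Rab20, chr8:11478669-11478698, minus strand, E-box core CACGTG: cggccgggcaccCACGTGgtcgcagggctg
Rab32, chr10:10558232-10558261, minus strand, GAGGAAGT, a PU.1-type ETS element: tagccagggaaGAGGAAGTgccgggaccag
The Rab20 site spans -58 to -29 and the Rab32 site -54 to -25 relative to the RefSeq start, and both lie inside the first exon as GENCODE annotates it. CACGTG was present in 6.02% and GAGGAAGT in 2.44% of the 32851 windows of 250 bases upstream of RefSeq starts. A match describes letters in a window and does not show that a factor binds there. CACGTG was also found upstream of Rab5a, Rab21, Rab23 and Rab27a, and GAGGAAGT upstream of Rab2b. Rab5a and Rab21 rose, Rab27a fell, and Rab23 and Rab2b were under the filter.

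Of the 6 tested Rabs of late endosomes and lysosomes, Rab7, Rab7b, Rab9 and Rab29 were lower and Rab12 and Rab24 higher. Rab7b, which carries cargo between late endosomes and the trans-Golgi network and restrains Toll-like receptor signalling in macrophages, had 31.8, 30.7 and 32.1 FPKM in CKO libraries against 88.3, 85.9 and 86.9 in WT libraries. Its WT level was 2.76 times its CKO level, or -1.44 on the log2 scale (SE 0.032, limma adjusted p = 4.36e-12; chromosome 1, 131688695 to 131715439, plus strand). Rab7, the switch for fusion of late endosomes and phagosomes with lysosomes, had 109, 106 and 109 FPKM in CKO libraries against 188, 195 and 194 in WT libraries. It fell by 0.82 on the log2 scale (SE 0.028; chromosome 6, 87999106 to 88045270, minus strand), and 12.7% of its 50-base words are shared, mainly with its pseudogene Rab7-ps1. Rab9, which returns mannose 6-phosphate receptors from late endosomes to the Golgi, had 16.5, 17.6 and 16.6 FPKM in CKO libraries against 37.1, 40.0 and 39.0 in WT libraries. The difference was 2.29-fold and -1.15 on the log2 scale (SE 0.042; chromosome X, 166457253 to 166479867, minus strand). In all 3 genes every CKO library lay below every WT library, and the call held in every alternative run.

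The other late endosome Rabs changed less. Rab29, which recruits the kinase LRRK2 to membranes, averaged 18.4 ± 1.40 FPKM in CKO libraries and 27.3 ± 1.64 in WT libraries (SD, n = 3 each), a log2 fold change of -0.54. Rab12, which sends transferrin receptor to lysosomes, had 30.8, 25.5 and 28.1 FPKM in CKO libraries against 19.0, 21.2 and 21.7 in WT libraries. It varied more between libraries than the genes above but did not overlap, with a log2 fold change of 0.43 (SE 0.066; chromosome 17, 66494512 to 66519729, minus strand). Rab24, linked to autophagy, averaged 1.85 ± 0.141 FPKM in CKO libraries and 1.49 ± 0.181 in WT libraries (SD, n = 3 each), a log2 fold change of 0.19 (limma adjusted p = 0.0261). That call did not pass without CKO replicate 3 (0.0968), WT replicate 1 (0.0723) or WT replicate 2 (0.0938), nor with no filter on low values (0.0520) or limma voom on the recovered reads (0.113). Prelid1, whose exons overlap Rab24 on the opposite strand and hold most of the 49.6% of its 50-base words found elsewhere, had 152 to 157 FPKM in CKO libraries and 80.3 to 81.6 in WT libraries. The kit keeps strand, but whether the counting used it is not given in the sources used here.

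Early endosome Rabs were split. Rab5c, Rab5a and Rab21 were higher, Rab31 and Rab5b lower, and Rab22a did not pass. Rab5c, 1 of 3 Rab5 proteins that drive fusion of early endosomes and of new phagosomes, had 182, 187 and 192 FPKM in CKO libraries against 126, 125 and 126 in WT libraries. It was the most abundant Rab gene in CKO libraries, 1.48 times its WT level, with a log2 fold change of 0.57 (SE 0.028; chromosome 11, 100715009 to 100738215, minus strand). Rab31, which carries mannose 6-phosphate receptors from the trans-Golgi network to endosomes, had 35.1, 34.6 and 34.5 FPKM in CKO libraries against 65.2, 68.0 and 63.6 in WT libraries. It was 1.89 times as abundant in WT, a log2 fold change of -0.90 (SE 0.034; chromosome 17, 65651729 to 65772752, minus strand). Rab21, which moves integrins through endosomes, averaged 24.5 ± 0.466 FPKM in CKO libraries and 17.98 ± 0.841 in WT libraries (SD, n = 3 each), a log2 fold change of 0.42. Rab22a, which joins early and recycling endosomes, averaged 12.9 ± 0.199 FPKM in CKO libraries and 12.1 ± 0.322 in WT libraries (SD, n = 3 each). Its limma adjusted p was 0.0556, and it passed without WT replicate 2 (0.0405), with no filter (0.0405), with array weights (0.0439), with limma voom (0.0408), after median-of-ratios scaling (1.22e-04) and after quantile normalization (0.00379).

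**Figure D3:**
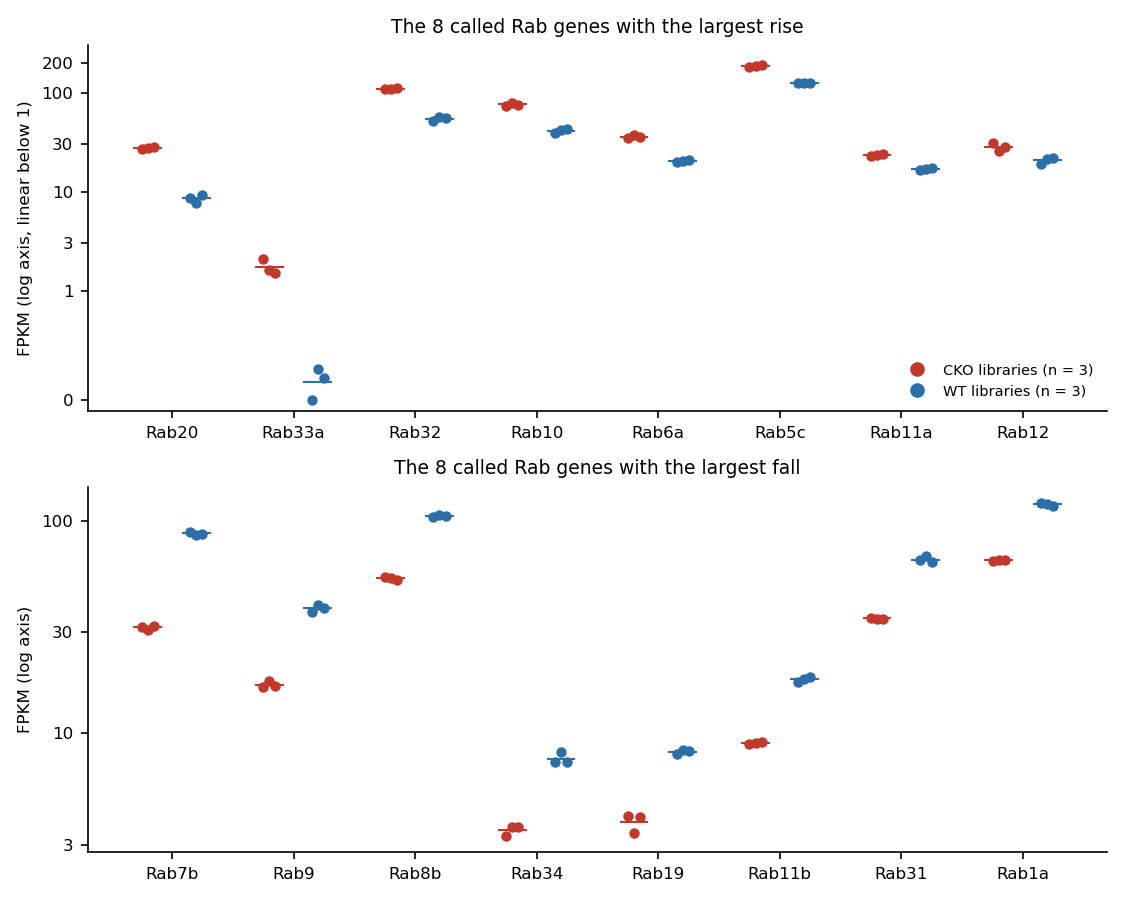
FPKM in each library for the 8 called Rab genes with the largest rise (top) and the 8 with the largest fall (bottom), on a log axis that is linear below 1 in the top panel. Points are the 3 libraries labelled CKO (left, red) and the 3 labelled WT (right, blue), lines are group means. No gene shows overlap, but these genes were picked by the size of their change in the same values. Over all tested genes 82.5% did not overlap. Rab20 stands at 26.8 to 28.2 FPKM in CKO and 7.69 to 9.27 in WT libraries. Rab1a stands at 64.8 to 65.5 in CKO and 117 to 121 in WT libraries.

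Of the Golgi and ER class, 3 genes were higher, 7 lower and 1, Rab2a, did not pass. Rab33a, among the 3 higher, and Rab6b, among the 7 lower, each passed the filter only through the group in which they were high. The filter thus fixed their directions. Of all tested genes 30.5% were higher and 50.5% lower. Rab6a, which moves vesicles from the Golgi to the ER and outward to the surface, had 34.9, 37.6 and 35.4 FPKM in CKO libraries against 20.01, 20.2 and 21.1 in WT libraries. The rise was 1.76-fold, 0.79 on the log2 scale (SE 0.040; chromosome 7, 100607410 to 100641268, plus strand). The gene Mrpl48 overlaps it on the opposite strand and holds most of the 19.0% of its 50-base words found elsewhere, at 2.60 to 2.98 FPKM in CKO libraries and 3.42 to 3.81 in WT libraries. Rab1a, which drives transport from the ER to the Golgi, had 64.8, 65.5 and 65.1 FPKM in CKO libraries against 121, 120 and 117 in WT libraries. It fell by 0.86 on the log2 scale (SE 0.028; chromosome 11, 20201432 to 20226856, plus strand). Its paralogue Rab1b had 77.3, 78.5 and 79.8 FPKM in CKO libraries against 95.2, 92.9 and 92.3 in WT libraries. Rab1b thus moved less, by -0.25 (SE 0.029, limma adjusted p = 9.89e-06; chromosome 19, 5099205 to 5107072, minus strand), and was not called after median-of-ratios scaling (0.0683).

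Among the less abundant Golgi Rabs, Rab34, which positions lysosomes and takes part in cilium formation, had 3.30, 3.62 and 3.65 FPKM in CKO libraries against 7.31, 8.18 and 7.37 in WT libraries. Rab19, a Golgi-associated Rab, had 4.11, 3.42 and 4.03 FPKM in CKO libraries against 7.96, 8.31 and 8.31 in WT libraries. In both genes the WT libraries held over 2 times the CKO level, and the log2 fold changes were -0.93 (SE 0.059) for Rab34 and -0.92 (SE 0.062) for Rab19. Rab34 lies on chromosome 11, 78188430 to 78192193, and Rab19 on chromosome 6, 39381175 to 39390380, both on the plus strand. Rab43, which acts in transport through the Golgi, had a log2 fold change of -0.56, but 74.5% of its 50-base words also occur in Gm45140 on the same strand, so its reads could be split. Rab18, a Rab of the ER and of lipid droplets, averaged 11.8 ± 0.424 FPKM in CKO libraries and 10.8 ± 0.387 in WT libraries (SD, n = 3 each), and its limma adjusted p of 0.0388 did not pass without CKO replicate 2 (0.124), CKO replicate 3 (0.0947), WT replicate 2 (0.0893) or WT replicate 3 (0.124). Rab2a, which works between the ER and the Golgi, averaged 56.7 ± 0.364 FPKM in CKO libraries and 59.4 ± 1.52 in WT libraries (SD, n = 3 each). The log2 fold change of Rab2a was -0.06 (limma adjusted p = 0.0779). It turned to 0.12 (0.00531) after median-of-ratios scaling and was -0.11 (0.00636) after quantile normalization.

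Delivery to the plasma membrane had 2 genes in each direction. Rab10, which brings Toll-like receptor 4 and glucose transporters to the surface, had 73.8, 78.2 and 75.9 FPKM in CKO libraries against 38.7, 42.0 and 42.9 in WT libraries. The groups were well apart, with a ratio of 1.84 and a log2 fold change of 0.87 (SE 0.042; chromosome 12, 3247428 to 3309969, minus strand). Rab8a and Rab8b, which guide exocytic vesicles, went in opposite directions and are described with the paralogues. Rab13, known from the delivery of junction proteins, averaged 4.18 ± 0.0911 FPKM in CKO libraries and 5.85 ± 0.404 in WT libraries (SD, n = 3 each), a log2 fold change of -0.40. In the recycling class 1 gene, Rab11a, was higher and 4 were lower, against 30.5% and 50.5% of all tested genes. Rab14, which links the Golgi and endosomes, had a log2 fold change of -0.49, Rab35, a Rab of fast recycling, -0.24, and Rab4a, another of fast recycling, -0.76. Rab4a passed the filter through the WT libraries alone, with 14 to 26 reads in CKO libraries and 52 to 69 in WT libraries. Rab35 was not called after median-of-ratios scaling (limma adjusted p = 0.239).

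Of 5 tested Rabs of regulated secretion, 4 were lower in CKO, against 50.5% of all tested genes, and all but Rab3d had low values. Rab3d, of exocrine granules, averaged 11.4 ± 0.193 FPKM in CKO libraries and 13.4 ± 0.156 in WT libraries (SD, n = 3 each), a log2 fold change of -0.21 that was not called after median-of-ratios scaling (limma adjusted p = 0.360). Rab27a, which docks secretory granules of leukocytes, averaged 1.64 ± 0.0424 FPKM in CKO libraries and 3.41 ± 0.528 in WT libraries (SD, n = 3 each), a log2 fold change of -0.73. Rab27b, its relative in platelets and mast cells, averaged 0.742 ± 0.1496 FPKM in CKO libraries and 1.62 ± 0.141 in WT libraries, and Rab44, a large Rab of mast cell granules, 1.224 ± 0.129 FPKM in CKO libraries and 2.98 ± 0.545 in WT libraries (SD, n = 3 each). The CKO and WT values of Rab27a, Rab27b and Rab44 did not overlap, and Rab27b passed the filter through the WT libraries alone. Most tested markers of granule-bearing cells were lower too, as were 50.5% of all tested genes. Of 14 neutrophil markers 11 were tested, 2 (Lcn2 and Mmp8) higher and 8 lower. The summed level of the 14 was 278 to 286 FPKM in CKO libraries and 680 to 979 in WT libraries. Single genes weighed heavily in it. Lcn2 averaged 152 ± 7.25 FPKM in CKO libraries and 21.7 ± 4.54 in WT libraries (SD, n = 3 each). S100a9 averaged 37.3 ± 5.10 FPKM in CKO libraries and 425 ± 85.0 in WT libraries (SD, n = 3 each). Ly6g was at 0 in all CKO libraries and in 2 of the 3 WT libraries. Of 9 mast cell, basophil and eosinophil markers 3 were tested and all 3 were lower, with a sum of 2.79 to 3.33 FPKM in CKO libraries and 12.6 to 13.9 in WT libraries, and Tpsb2 was at 0 in all 6. Of 9 platelet and erythroid markers 4 were tested and 3 were lower, with a sum of 117 to 129 FPKM in CKO libraries and 181 to 198 in WT libraries, and Gp1bb was at 0 in all 6. Pf4, tested but not called, averaged 74.0 ± 6.08 FPKM in CKO libraries and 68.9 ± 1.61 in WT libraries (SD, n = 3 each). Among the other lists, 2 of 2 tested B and plasma cell markers and the 1 tested T and NK marker were lower. Of 3 tested endothelial markers, 2 were lower and 1 higher. The 1 tested dendritic marker and the 1 tested fibroblast and smooth muscle marker were higher. Elane, Ngp, Ltf, Cpa3, Kit, Cd79b, Jchain and Cd4 passed the filter through the WT libraries alone. Ccr7 and Pecam1 passed it through the CKO libraries alone. The filter thus fixed the direction of those markers, and their calls add no support to the counts. The part of any of these cell types in the result was not tested. Rab3a, of synaptic vesicles, overlapped between groups, with 2.04 ± 0.204 FPKM in CKO libraries and 1.56 ± 0.494 in WT libraries (SD, n = 3 each; limma adjusted p = 0.0639). It passed as higher without WT replicate 1 (0.00681), with array weights (0.0419), after median-of-ratios scaling (0.0121) and after quantile normalization (0.01001).

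Of the remaining tested genes, Rab40c, part of a ubiquitin ligase, averaged 6.64 ± 0.312 FPKM in CKO libraries and 12.5 ± 0.464 in WT libraries (SD, n = 3 each), a log2 fold change of -0.82. Rab28, a Rab of photoreceptors and cilia, had a log2 fold change of -0.24 and was not called after median-of-ratios scaling (limma adjusted p = 0.268) or quantile normalization (0.128). The 17 untested Rab genes were Rab2b, Rab3b, Rab3c, Rab4b, Rab9b, Rab15, Rab17, Rab23, Rab25, Rab26, Rab30, Rab36, Rab37, Rab39, Rab39b, Rab40b and Rab42. Rab9b had no read in any library. Rab25, an epithelial Rab, had 1, 0 and 3 reads in CKO libraries and 0 in each WT library, which is at or under the floor of 3 reads per library on both sides. The untested gene with the highest value was Rab39, which reached 1.31 FPKM in WT replicate 3, and the next, Rab23, a Rab of Hedgehog signalling, stayed at or under 0.859 FPKM. Rab42 averaged 0.208 ± 0.0861 FPKM in CKO libraries and 0.692 ± 0.0819 in WT libraries, and Rab37, of mast cell granules, 0.191 ± 0.0144 FPKM in CKO libraries and 0.403 ± 0.117 in WT libraries (SD, n = 3 each). In the other direction Rab23 averaged 0.847 ± 0.0171 FPKM in CKO libraries and 0.703 ± 0.0330 in WT libraries (SD, n = 3 each). These differences were not tested.

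Some paralogues that share a number were called in opposite directions. In the sets of Rab5, Rab6, Rab8, Rab11 and Rab33 at least 1 gene was called higher and 1 lower, against 30.5% called higher and 50.5% lower over all tested genes. Rab6b and Rab33a passed the filter only through the group in which they were high, so the count for the sets of Rab6 and Rab33 rests on that choice. After median-of-ratios scaling 4 such sets were left, without Rab33, and after quantile normalization there were 5, with Rab3 in place of Rab33. Over 11 pairs of tested paralogues, the difference of the log2 values of a pair did not overlap between groups in 10. Single genes did not overlap in 82.5% of cases, no share was computed for pairs of unrelated genes, and nothing particular to paralogues is read from either count. The exact two-sided permutation test gave p = 0.1 for each of those 10, the smallest that 3 against 3 libraries allow, and 0.11 after adjustment over the 11 pairs, so none could pass 0.05. The exception was Rab27a against Rab27b (exact permutation p = 0.3, shift -0.14). No gene of the 59 shared a 50-base word with another Rab gene of its number in the GENCODE transcripts.

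Rab8a had 31.5, 33.3 and 33.6 FPKM in CKO libraries against 24.0, 25.0 and 23.8 in WT libraries, a log2 fold change of 0.42 (SE 0.038; chromosome 8, 72161200 to 72183904, plus strand). Rab8b had 54.3, 53.9 and 52.6 FPKM in CKO libraries against 104, 106 and 105 in WT libraries, a log2 fold change of -0.96 (SE 0.029; chromosome 9, 66843664 to 66919687, minus strand). Rab8b remained the more abundant of the pair, and Rab8a held 38.0 ± 1.13% of their sum in CKO libraries and 18.8 ± 0.307% in WT libraries (SD, n = 3 each). The sum in CKO libraries was 0.668 times that in WT libraries. The 250 bases upstream of the RefSeq start of each (GRCm38.p6) are shown because this is an abundant pair that moved apart; capitals mark CCAAT on either strand, so also ATTGG, and GGGCGG, the core of a GC box.
Rab8a, chr8:72160950-72161199, plus strand: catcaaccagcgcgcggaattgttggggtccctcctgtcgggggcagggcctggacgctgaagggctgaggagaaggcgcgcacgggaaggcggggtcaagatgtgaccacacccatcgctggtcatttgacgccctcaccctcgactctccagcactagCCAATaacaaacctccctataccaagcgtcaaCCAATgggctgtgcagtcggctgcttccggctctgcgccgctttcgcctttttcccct
Rab8b, chr9:66919706-66919955, minus strand: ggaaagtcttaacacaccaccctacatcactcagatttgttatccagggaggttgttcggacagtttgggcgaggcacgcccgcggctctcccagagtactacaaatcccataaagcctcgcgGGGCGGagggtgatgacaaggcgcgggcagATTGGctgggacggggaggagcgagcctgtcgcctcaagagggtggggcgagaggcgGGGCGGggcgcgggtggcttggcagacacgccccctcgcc
The Rab8a window holds CCAAT at 2 places and no GGGCGG, and the Rab8b window holds CCAAT at 1 place, as ATTGG, and GGGCGG at 2. CCAAT was present in 33.8% and GGGCGG in 32.7% of all 32851 windows, so either motif is common. Over the Rab genes, 48 matched RefSeq entries with 60 windows, of which 24 held CCAAT and 40 held GGGCGG. The CCAAT motif was found upstream of the rising genes Rab10, Rab6a, Rab11a and Rab5c and also of the falling genes Rab31, Rab11b and Rab8b.

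In the Rab11 pair, which controls recycling endosomes, Rab11a led in CKO libraries and Rab11b narrowly in WT libraries. Rab11a had 22.7, 23.4 and 24.0 FPKM in CKO libraries against 16.5, 16.8 and 17.1 in WT libraries (log2 fold change 0.45, SE 0.038; chromosome 9, 64715299 to 64737758, minus strand). Rab11b had 8.95, 9.03 and 9.08 FPKM in CKO libraries against 17.5, 18.1 and 18.4 in WT libraries (log2 fold change -0.92, SE 0.040; chromosome 17, 33742484 to 33760530, minus strand). Rab11a made up 72.1 ± 0.434% of the pair in CKO libraries and 48.3 ± 0.240% in WT libraries (SD, n = 3 each), while the sum in CKO libraries was 0.930 times that in WT libraries. The pseudogene Rab11b-ps2 and other genes share 13.6% of the 50-base words of Rab11b.

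In the Rab5 set all 3 genes were expressed. Rab5a had 17.7, 17.8 and 16.7 FPKM in CKO libraries against 13.9, 14.5 and 14.1 in WT libraries (log2 fold change 0.28, SE 0.041; chromosome 17, 53479234 to 53507680, plus strand). Rab5b had 33.9, 35.2 and 33.7 FPKM in CKO libraries against 45.4, 46.4 and 44.4 in WT libraries (log2 fold change -0.40, SE 0.034; chromosome 10, 128677175 to 128696264, minus strand). Rab5b was thus the only falling member, at 14.4 ± 0.401% of the set in CKO libraries and 24.5 ± 0.455% in WT libraries, and Rab5c held 78.3 ± 0.731% in CKO libraries and 67.9 ± 0.535% in WT libraries (SD, n = 3 each). The Rab5 sum in CKO libraries was 1.29 times that in WT libraries.

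In the Rab6 pair the second gene was rare. Rab6b, best known from neurons, had 0.545, 0.387 and 0.380 FPKM in CKO libraries against 1.27, 1.33 and 1.49 in WT libraries (log2 fold change -0.72, SE 0.072; chromosome 9, 103111787 to 103185276, plus strand), and passed the filter through the WT libraries alone. Rab33a, a Rab of vesicles in neurons and lymphocytes, had 2.07, 1.62 and 1.504 FPKM in CKO libraries against 0, 0.289 and 0.207 in WT libraries. These values stand for 41, 29 and 31 reads in CKO libraries against 0, 6 and 4 in WT libraries, so Rab33a passed the filter through the CKO libraries alone. Its log2 fold change was 1.23 (SE 0.105; chromosome X, 48519285 to 48530232, plus strand), and the ratio of means was 10.5. The size depended on single libraries and on the scale: the ratio of means was 6.98 without WT replicate 1 and 16.7 without WT replicate 2, and the log2 fold change was 2.99 with a pseudocount of 0.1 and 3.89 with limma voom. Rab33b, which acts at the Golgi and in autophagosome formation, had 5.03, 5.04 and 5.33 FPKM in CKO libraries against 6.14, 5.92 and 5.99 in WT libraries (log2 fold change -0.19, SE 0.049; chromosome 3, 51483920 to 51496232, plus strand). That small fall was called (limma adjusted p = 0.00332) but not after median-of-ratios scaling (0.495) or quantile normalization (0.151), and 21.2% of the 50-base words of Rab33b occur in other genes.

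In the Rab1 and Rab7 pairs both genes fell, but by different amounts. Rab1a held 45.3 ± 0.357% of its pair in CKO libraries and 56.0 ± 0.272% in WT libraries, so that Rab1b led in CKO libraries (SD, n = 3 each). Rab7 held 77.5 ± 0.173% of its pair in CKO libraries and 68.8 ± 0.740% in WT libraries (SD, n = 3 each). The sum of the Rab7 pair in CKO libraries was 0.501 times that in WT libraries, against 0.676 for the Rab1 pair and 1.67 for the Rab6 pair.

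**Figure D4:**
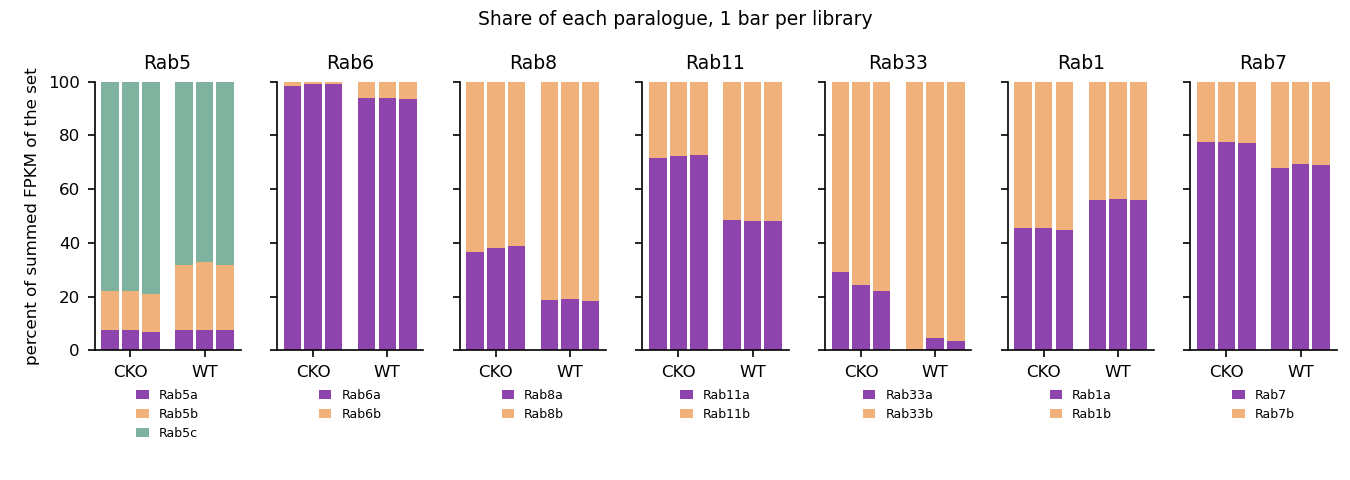
Percent of the summed FPKM of each Rab number held by each paralogue, 1 bar per library, with the 3 libraries labelled CKO left and the 3 labelled WT right in each panel. Rab8a holds 38.0% of its pair in CKO and 18.8% in WT libraries, Rab11a 72.1% in CKO and 48.3% in WT libraries, and the bars of a group are nearly alike.

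Genes that act on Rab proteins were counted over 6 lists of regulators and effectors. Of 154 listed genes found, 129 were tested, and 25 were higher and 82 lower, against 30.5% and 50.5% of all tested genes. Of the 129, 125 reached 1 FPKM in libraries of both groups. Dennd6b reached it in CKO libraries alone, and Dennd2d, Tbc1d16 and Rab11fip2 in WT libraries alone. The filter thus fixed the direction of those genes, and their calls add no support to the counts here or by list. Their median log2 fold change was -0.35, against -0.14 over all tested genes. After median-of-ratios scaling 39 were higher and 71 lower, against 40.8% and 38.9% of all genes. The median was then -0.18, against 0.01 over all genes.

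Of 8 tested genes that lipidate and extract Rabs, 0 were higher and 7 lower, against 30.5% and 50.5% of all tested genes. Their median log2 fold change was -0.34. Gdi2, which draws GDP-bound Rabs off membranes, had 35.0, 36.0 and 36.0 FPKM in CKO libraries against 48.5, 48.8 and 48.5 in WT libraries (log2 fold change -0.44). Chm and Chml, the escort proteins that present new Rabs for lipidation, had log2 fold changes of -0.57 and -0.65. Rabggtb, a subunit of the enzyme that adds the lipid, had -0.34, and Rabac1, which releases Rabs from GDI at membranes, -0.33. After median-of-ratios scaling 5 of the 8 were still called lower, against 38.9% of all genes.

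Of 37 tested exchange factor genes, 9 were higher and 22 lower, that is 83.8% called against 81.1% of all tested genes. After median-of-ratios scaling 14 were higher and 19 lower, against 40.8% and 38.9% of all genes. Rab3il1, an exchange factor for Rab8, had 1.198, 1.06 and 1.08 FPKM in CKO libraries against 19.5, 20.4 and 18.4 in WT libraries. It was 17.5-fold more abundant in WT, the largest fall on these lists at -3.27 on the log2 scale (SE 0.055, limma adjusted p = 4.77e-13). The related exchange factor Rab3ip, singled out after its values were seen, averaged 5.38 FPKM in CKO libraries and 2.33 in WT libraries, a log2 fold change of 0.93. Dennd4c, which activates Rab10, averaged 10.96 ± 0.807 FPKM in CKO libraries and 41.0 ± 0.345 in WT libraries (SD, n = 3 each; log2 fold change -1.82). Rin3, which activates Rab5 and Rab31, had a log2 fold change of -1.71, Rab3gap2, part of the exchange factor for Rab18, -1.31, and Madd, which activates Rab3 and Rab27, -1.26.

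Of 32 tested GTPase-activating genes, 6 were higher and 21 lower, that is 84.4% called against 81.1% of all tested genes. Tbc1d9 averaged 45.7 ± 0.550 FPKM in CKO libraries and 19.0 ± 0.812 in WT libraries (SD, n = 3 each), a log2 fold change of 1.22. Tbc1d16, which acts on Rab4a, averaged 0.615 ± 0.104 FPKM in CKO libraries and 6.88 ± 0.410 in WT libraries (SD, n = 3 each), a log2 fold change of -2.29, and passed the filter through the WT libraries alone. Tbc1d2, which inactivates Rab7, had a log2 fold change of -1.40. Tbc1d22a had -1.06, and Tbc1d14, which binds Rab11 and restrains autophagosome formation, -1.05.

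Of 40 tested effector genes, 6 were higher and 23 lower, that is 72.5% called against 81.1% of all tested genes. Myo5a, a myosin motor that carries Rab-bearing vesicles along actin, had 19.7, 18.4 and 18.4 FPKM in CKO libraries against 78.5, 77.3 and 77.2 in WT libraries (log2 fold change -1.99, SE 0.036). Rilpl2, which binds Rab8 and Rab10 after LRRK2 has phosphorylated them, averaged 32.2 ± 0.523 FPKM in CKO libraries and 110 ± 2.78 in WT libraries (SD, n = 3 each; log2 fold change -1.75). Both groups of libraries were tight, and neither gene overlapped. Plekhm1, which ties Rab7 to the tether of lysosomes, had a log2 fold change of -1.42, the Rab11 partner Rab11fip5 -1.69, and Mical1, a Rab-bound enzyme that takes actin apart, -1.89. In the other direction, Micall2 and Rab11fip1, chosen after their values were seen, had log2 fold changes of 1.60 and 1.29.

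All 10 genes of the HOPS and CORVET tethers and their partners were called, 2 higher and 8 lower, with a median of -0.56; over all tested genes 81.1% were called and 50.5% lower. Vps18, a core subunit of both tethers, had 24.5, 24.1 and 23.9 FPKM in CKO libraries against 48.4, 48.0 and 49.3 in WT libraries, a log2 fold change of -0.98. Vps33a, another core subunit, had -0.68, Vps39, specific to HOPS and a binder of Rab7, -0.60, and Tgfbrap1, specific to CORVET, -0.69. Vipas39, the partner of the related protein Vps33b, had -0.78. The 2 that were higher were Vps8 at 0.30 and Vps16 at 0.14.

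Lrrk2, a kinase that phosphorylates Rab8, Rab10, Rab12 and Rab29 among others, had 11.9, 11.4 and 10.6 FPKM in CKO libraries against 2.73, 2.56 and 2.35 in WT libraries. It was 4.43-fold higher in CKO, or 1.79 on the log2 scale (SE 0.061, limma adjusted p = 1.62e-10; chromosome 15, 91673175 to 91816120, plus strand). Of its substrates named here, Rab8a, Rab10 and Rab12 rose while Rab8b and Rab29 fell. Lrrk1, the related kinase, had a log2 fold change of 0.29. Ppm1h, the phosphatase that reverses the mark, had -0.23 (limma adjusted p = 4.24e-04) and was not called after median-of-ratios scaling (0.237).

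**Figure D5:**
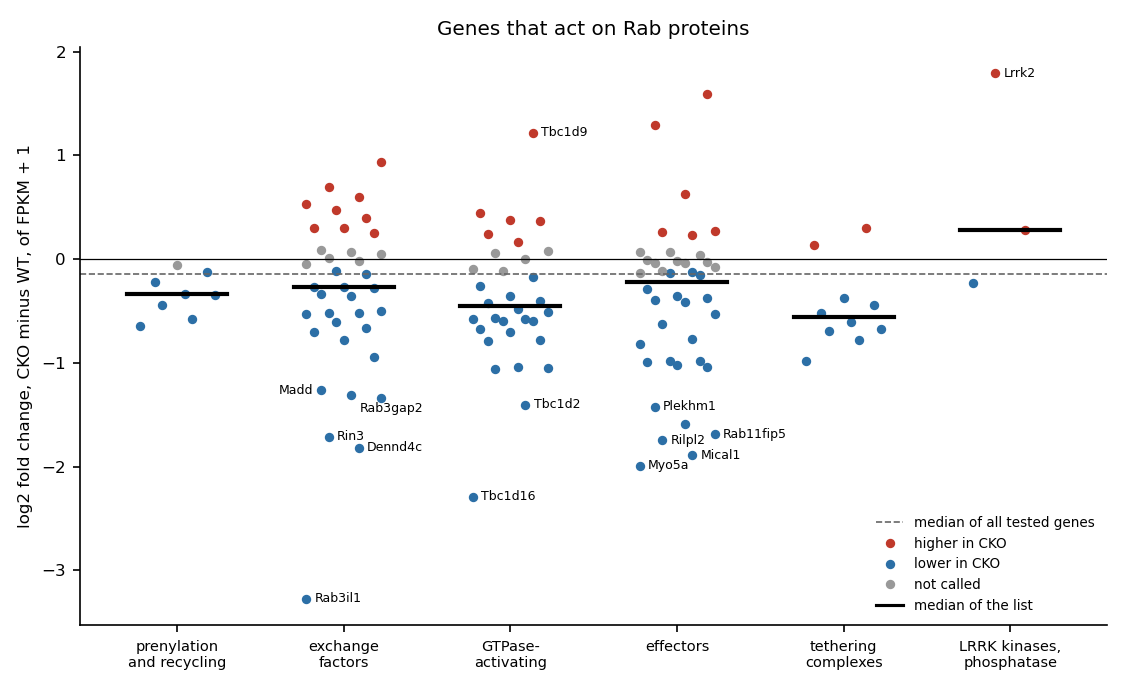
Log2 fold change of FPKM + 1, libraries labelled CKO minus libraries labelled WT, of the tested genes on 6 lists of proteins that act on Rabs. Points are genes, coloured by call, short lines are list medians, and the dashed line is the median of all tested genes, -0.14; Rab3il1 lies lowest at -3.27 and Lrrk2 highest at 1.79.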

How the data were processed

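RNA was sequenced from sorted mouse macrophages, 3 libraries labelled CKO and 3 labelled WT, extracted with TRIzol and made with a stranded mRNA kit, per the labels' protocols. The authors deposited 1 table of FPKM per library, per the file headers. Build mm10 and these tools stand in the submitters' processing notes, without their roles: HISAT2 2.1.0, featureCounts 1.6.2, Cufflinks, StringTie 1.3.4d, fastp 0.19.3, GATK 4.0.11.0 and DESeq2 1.22.1. FPKM times gene length gave whole reads for 100% of values within 0.01 reads; these served for depth and for a limma voom alternative. All 59 Rab genes had the same coordinates in GENCODE.

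The test was limma 3.58.1 (R 4.3.3; intensity trend) on log2(FPKM + 1) for genes that reached 1 FPKM in 3 or more libraries, with a term for group. Fold changes are CKO minus WT on that scale, which understates those of low genes. Benjamini-Hochberg adjustment ran over 9953 genes. As the labels do not say that libraries came from separate animals, p-values measure the spread between libraries, which may be technical. The limma step was run on simulated reads in which a small set of genes was changed, up and down in equal number. That run could not test the scaling, since 81.1% of genes were called here. Named with values in every library are the 8 called Rab genes of largest change in each direction, the 5 of highest mean and paralogue sets of opposite calls. Outside these rules, the values of Rab38 and the reads of Rab25 are also given by library. For each list of regulators up to 5 genes of smallest p are named, some with fold changes alone. Place-of-action groups and lists come from textbook knowledge. The members and lists were chosen with earlier results of these data known, and the sequences shown after the values were seen. Upstream windows came from RefSeq; 48 Rab genes matched and 11 did not. The motifs searched, on both strands, were the E-box CACGTG, its inner part ACGTG, the AP-1 site TGANTCA, the ETS element GAGGAAGT, CCAAT boxes, the GC box GGGCGG, the interferon-stimulated response element and the kappaB element. Settings tried besides were voom, array weights, no trend, quantile normalization or median-of-ratios scaling, a filter at a mean FPKM of 5 or none, pseudocounts of 0.5 or 0.1, a block for replicate number, and leaving out 1 library at a time. Other software was Python 3.11.15, pandas 2.3.3, numpy 2.4.6 and scipy 1.17.1.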

Additional observations from a re-analysis of the deposited data

How the results depend on the processing

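Of the 42 tested Rab genes, 31 kept their direction and their side of the threshold in every alternative run, and 11 did not: Rab22a, Rab18, Rab1b, Rab2a, Rab33b, Rab24, Rab38, Rab28, Rab35, Rab3a and Rab3d. Only Rab2a reversed, to 0.12 after median-of-ratios scaling. A mean FPKM of at least 5 kept 32 Rab genes. It also left 6402 genes in all, of which 3185 were called lower, and 16 regulators and effectors called higher; median-of-ratios scaling called 39 of those higher. With fewer genes tested the counts are lower by construction; for the other differences the cause was not tested.

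The median log2 fold change of the tested Rab genes was -0.34 with a pseudocount of 0.1, -0.32 with 0.5, -0.19 with no filter, -0.24 with a mean FPKM of at least 5, -0.14 after median-of-ratios scaling, -0.25 with array weights and -0.35 with voom. It ranged from -0.34 to -0.25 when 1 library was left out. In those fits 11 to 13 Rab genes were higher and 25 to 26 lower. Same-numbered libraries deviated from their group means with correlations of 0.02, 0.01 and -0.04, and differently numbered ones with -0.06 to 0.05. No pairing by number was seen, though so small a design cannot exclude it. With the replicate number as a block, 13 Rab genes were higher and 26 lower. Rab3a was then gained (limma adjusted p = 0.0420) and Rab18 lost (0.0642). Of all genes 3018 were higher and 5023 lower in that fit. Low reads limit Rab33a, Rab38 and Rab4a most.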
